A study of Homo sapiens with 36 samples.

Results

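The heavy polysomal pool of HCT-116 cells on day 2 of 5-fluorouracil (D2) was compared with the same pool before the drug (D0). The comparison used the 3 D2 heavy libraries and the 3 D0 heavy libraries, out of 36 libraries in the series, and all 15891 genes of the deposited table. HCT-116 is a line from a human colorectal carcinoma. The D2 cells were within a 48 h exposure to 10 µM 5-fluorouracil (5-FU), a pyrimidine analogue that blocks thymidylate synthase and enters RNA and DNA. The D0 cells came from the same line without drug. Day 1 (D1) heavy libraries and the cytoplasmic libraries of D2 and D0, 3 of each, were used for the course within the exposure and for the comparison of fractions. No untreated culture was kept to D2, so time in culture and the drug cannot be told apart. All cells received emetine, which fixes ribosomes on mRNA, before harvest with trypsin. Nuclei and mitochondria were then spun down, a fixed amount of cytosolic protein was run on a sucrose gradient, and fractions carrying mRNA with more than 3 ribosomes were pooled as the heavy pool. Each library carries a letter (A, B or C), which its description calls a replicate and which is taken here as its batch. The labels do not say that the letters are separate cultures, so p-values here measure the spread between these samples, which may be technical.

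An mRNA in the heavy pool carries many ribosomes and is taken to be under active translation. Its level there depends both on how much of the mRNA is in the cytoplasm and on how many ribosomes load onto it. When 5-FU depletes thymidylate or disturbs RNA, the transcription factor p53 is stabilised and switches on genes of arrest, repair and death. The product of its target CDKN1A, p21, leads through the DREAM complex to the silencing of cell-cycle genes, many of which have a short promoter element called the cell-cycle homology region (CHR).

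The heavy libraries held 46.2 to 55.7 M reads over the listed genes, with 51.2 to 53.3 M at D2 and 48.9 to 54.5 M at D0. These totals are estimates from the values themselves, which were whole multiples of a smallest step in each library, taken as 1 read. In 24 of the 36 libraries no gene stood at a single step. Libraries of a group lay closer together in the heavy pool, with an SD around the group mean of 0.164 to 0.254 on the log2 scale, than in the cytoplasm, with 0.238 to 0.664. Cytoplasmic library D2 C had 103.6 M reads, against 44.8 and 46.5 M in the other two at that day. Of 27 epithelial and junction genes, which define the labelled cell type, 25 were listed, and the epithelial adhesion protein EPCAM stood at 10072, 11748 and 10669 normalised reads in the D2 heavy libraries, against 8489, 8380 and 7896 in the D0 heavy libraries. EPCAM is 1 gene of this list, of which 20 were called higher at D2 and 5 lower. Only 6 of 25 markers of other lineages were listed, with a summed level of 1677 to 2107 normalised reads at D2 and 871 to 1089 at D0. Colon identity genes were also mostly absent, with 3 of 20 listed, so few listed markers do not by themselves exclude a lineage. A gene appears in the table only with a value over 1 in every column, so genes silent in any library were not analysed here.

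Differences below are D2 minus D0 of log2(normalised read count + 1), with the standard error of limma's fit (n = 3 libraries per group) and limma's p adjusted over all genes. A gene rose or fell where this adjusted p was under 0.05. The added 1 understates the fold of weakly expressed genes. In whole cultures, fewer cells of a kind and less RNA per cell cannot be told apart. By this measure 4820 genes rose (30.3% of those tested) and 5469 fell (34.4%), and the median difference was -0.03. At least 2-fold changes were seen in 1787 of the genes that rose and 1857 of those that fell. All 3 D2 libraries lay above all 3 D0 libraries for 5413 genes (34.1%), and below them for 6080 genes (38.3%).

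The split between rises and falls depends on scaling. The normalised reads summed to 39.3 M at D2 and 51.2 M at D0, so that the D2 sum was 76.8% of the D0 sum. When every library was set to the same total instead, differences shifted up by a median of 0.38, and 7821 genes rose while 3093 fell. A fall smaller than about that shift therefore has a direction only under the authors' scaling. Small rises stay rises and become larger, though whether they pass can depend on the scaling. Summed over genes under the authors' scaling, falls removed 17.4 M normalised reads and rises added 5.48 M. Of the summed falls, 38.2% came from the 100 genes with the largest falls. These genes were picked by their falls, so a large share follows in part from the choice. CDKN1A alone made up 4.67% of the summed rises.

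The p53 targets rose nearly as a block. Of 33 genes on the list, 32 rose and 1 fell, with a median difference of 2.05 against -0.03 over all genes, and 32 also rose under equal totals. Those of cell-cycle arrest all rose (10 of 10, median 2.21), as did those of cell death (11 of 11, median 1.96) and those with secreted or other products (6 of 6, median 2.99). Among feedback and repair genes 5 rose and 1 fell (median 1.61).

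CDKN1A (ENSG00000124762, chromosome 6, 36676460 to 36687339, GRCh38) encodes p21, the inhibitor of cyclin-dependent kinases. Its heavy pool held 256327, 260524 and 281796 normalised reads at D2 (letters A, B and C), against 10791, 10347 and 9600 at D0. The groups lie far apart, with a difference of 4.70 ± 0.09 (adjusted p = 2.39e-20). Per kilobase of exon, CDKN1A ranked 5 among 12399 protein-coding genes of the heavy pool at D2, against 639 at D0. SFN, the 14-3-3 sigma protein that holds cyclin B1 with its kinase in the cytoplasm, ranked 1 at D2 and 111 at D0. It measured 151337, 175912 and 198242 normalised reads at D2, against 19070, 20905 and 20418 at D0 (3.11 ± 0.10, adjusted p = 1.53e-16).

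The targets next in size act in death and stress. TP53INP1, which links p53 to apoptosis and autophagy, had 8239, 6477 and 6845 normalised reads at D2, against 451, 328 and 310 at D0 (4.32 ± 0.15). TP53I3, an oxidoreductase, had 17396, 17448 and 18105 at D2, against 963, 924 and 808 at D0 (4.30 ± 0.11). The decoy death receptor TNFRSF10C had 647.2, 705 and 617.6 at D2, against 21.26, 42.17 and 28.35 at D0 (4.43 ± 0.19). No D2 library of these 3 genes came near a D0 library. GDF15, a stress cytokine that curbs appetite, ranked 20 per kilobase at D2 and 715 at D0. Its normalised reads were 69404, 101352 and 95057 at D2, against 5962, 7190 and 5904 at D0 (3.79 ± 0.16), the D2 library of letter A being the lowest of its group.

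Feedback genes moved less. MDM2, the ligase that degrades p53, had 16544, 14183 and 12853 normalised reads at D2, against 2613, 2241 and 2330 at D0 (2.60 ± 0.11, adjusted p = 4.49e-15). The XPC mRNA, for a sensor of damaged DNA, was the exception on the list: 1788, 1964 and 2329 normalised reads at D2, against 2818, 2789 and 2833 at D0 (-0.48 ± 0.15, adjusted p = 0.00614), a call lost under equal totals.

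**Figure D1:**
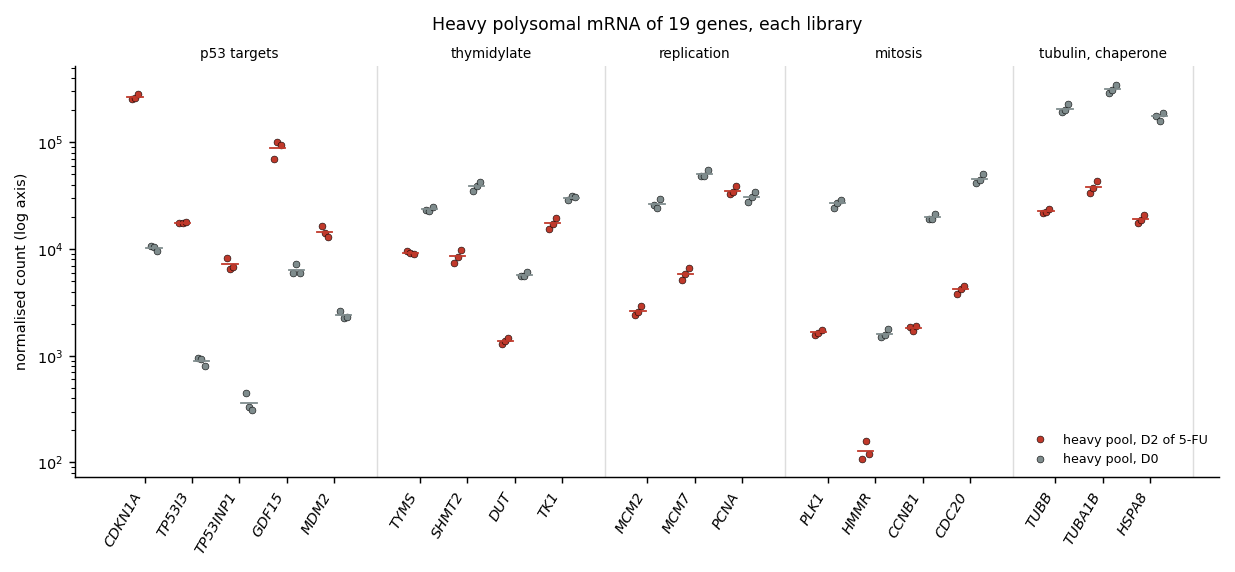
Normalised read counts (log axis) of 19 genes in each heavy library at D2 and D0, grouped by role; points are the 3 libraries and lines their mean. The D2 points of CDKN1A sit between 256327 and 281796, above its D0 points of 9600 to 10791, while PLK1, TUBB and HSPA8 lie lower at D2 and the groups of PCNA overlap.

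The 200 bases before the annotated start are shown for the 3 p53 targets with the largest rises for which a RefSeq promoter entry was used, to set them beside those of mitotic genes further on (RefSeq, GRCh38.p14, 5′ to 3′ on the gene's strand). Capitals mark matches on either strand to a form of the CHR or to CCAAT, the box bound by NF-Y. The CHR form TTTGAA stands in 15.2% of all promoter entries, the form TTTAAA in 12.2% and the form TTCGAA in 1.45%, CCAAT in 34.6% and the TATA box letters TATAAA in 11.5%. The 3 regions are chr6:36678514-36678713 (plus strand) for CDKN1A, chr2:24084835-24085034 (minus strand) for TP53I3 and chr19:18385958-18386157 (plus strand) for GDF15.
CDKN1A: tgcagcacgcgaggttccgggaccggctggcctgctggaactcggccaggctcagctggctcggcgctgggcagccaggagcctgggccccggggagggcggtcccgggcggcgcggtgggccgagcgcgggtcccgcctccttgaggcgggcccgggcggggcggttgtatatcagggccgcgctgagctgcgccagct
TP53I3: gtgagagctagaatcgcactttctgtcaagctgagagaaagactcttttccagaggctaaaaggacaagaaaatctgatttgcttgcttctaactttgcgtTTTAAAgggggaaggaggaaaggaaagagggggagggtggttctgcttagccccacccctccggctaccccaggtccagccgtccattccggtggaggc
GDF15: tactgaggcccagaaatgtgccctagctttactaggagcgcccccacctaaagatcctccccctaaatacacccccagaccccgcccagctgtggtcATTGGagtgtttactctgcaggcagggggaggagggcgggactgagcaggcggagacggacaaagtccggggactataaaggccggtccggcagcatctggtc
The CDKN1A window holds neither motif, TP53I3 holds 1 TTTAAA at -99 to -94, and GDF15 holds 1 CCAAT on the opposite strand at -103 to -99 and a TATAAA at -29 to -24. Over the whole entries of 250 bases before to 50 after the start, a CHR stood in 3 of 27 p53 target promoters (11.1%). A pair of p53 half-site cores, CATGNNNNNNCATG, stood in 0 of 27 of them and in 0.373% of all 35116 promoter entries. These letters not being in this window says nothing of p53 binding elsewhere.

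Mitotic mRNAs were lower in the heavy pool nearly throughout. Of 45 listed mitosis genes, 43 fell, 0 rose and 2 did not pass (median -1.86), and the summed level of the list was 71515 to 75382 normalised reads at D2, against 288004 to 327085 at D0. Kinases, cyclins and phosphatases fell in 14 of 14 cases (median -2.13), the anaphase and checkpoint group in 6 of 6, and spindle and kinetochore genes in 23 of 25. The 2 that did not pass were NUSAP1 (-0.99) and CEP55 (-0.34).

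PLK1 (chromosome 16, 23677656 to 23690367), a kinase that drives entry into and passage through mitosis, had 1557, 1651 and 1750 normalised reads at D2, against 24450, 27283 and 29139 at D0 (-4.02 ± 0.09, adjusted p = 1.62e-19). CCNB1, the mitotic cyclin B1, had 1843, 1715 and 1921 at D2, against 19189, 19149 and 21341 at D0 (-3.44 ± 0.10). CDC20, which activates the anaphase-promoting complex, had 3798, 4256 and 4518 at D2, against 41800, 44320 and 50064 at D0 (-3.44 ± 0.09). In none of these did the groups touch. HMMR, a spindle-assembly protein, stood lower in level at 108.7, 158.4 and 120 normalised reads at D2, against 1486, 1574 and 1774 at D0 (-3.65 ± 0.22). The kinase CDK1, the partner of cyclin B1, fell less, with 4873, 4457 and 5045 at D2, against 7022, 7523 and 7690 at D0 (-0.63 ± 0.11), a call lost under equal totals.

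The promoters of the 3 mitosis genes with the largest falls are shown in the same way, with the same meaning of capitals, because a CHR and a CCAAT box together were common on this list. They are chr16:23678689-23678888 for PLK1, chr5:163460432-163460631 for HMMR and chr5:69166950-69167149 for CCNB1, all on the plus strand of GRCh38.p14.
PLK1: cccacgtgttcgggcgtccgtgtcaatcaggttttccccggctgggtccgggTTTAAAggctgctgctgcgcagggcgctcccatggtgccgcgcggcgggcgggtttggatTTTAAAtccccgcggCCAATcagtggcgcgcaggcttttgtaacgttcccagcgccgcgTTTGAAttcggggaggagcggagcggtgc
HMMR: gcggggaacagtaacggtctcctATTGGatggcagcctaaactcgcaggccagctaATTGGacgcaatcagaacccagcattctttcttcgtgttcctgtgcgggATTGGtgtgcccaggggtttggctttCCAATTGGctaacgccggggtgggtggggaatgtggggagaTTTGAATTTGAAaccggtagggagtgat
CCNB1: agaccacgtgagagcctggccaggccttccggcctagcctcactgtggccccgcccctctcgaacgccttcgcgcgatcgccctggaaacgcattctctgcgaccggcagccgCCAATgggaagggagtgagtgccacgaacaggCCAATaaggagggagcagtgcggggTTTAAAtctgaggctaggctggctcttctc
A CHR letter match begins at -29 in PLK1, at -28 and -22 in HMMR and at -30 in CCNB1, and PLK1 has 2 more at -148 and -88. The nearest upstream CCAAT begins at -73 in PLK1, at -66 in HMMR (on the opposite strand, overlapping another at -69) and at -55 in CCNB1.

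Across the list, 33 of 39 mitosis promoters with an entry held a CHR (84.6%) and 27 of 39 held a CHR and a CCAAT box (69.2%). Among the 10730 genes of the table with a promoter entry the shares were 16.6% and 6.88%, and among all 35116 entries 25.1% and 9.7%. The 6 mitosis genes whose entry held none of the CHR forms searched were AURKB, CCNA2, NEK2, CDC25C, CDC25B and FBXO5. Only the forms given above were searched, in 1 promoter entry per gene, so other forms or places of a CHR were not seen. All 6 genes were among the falls, for example CCNA2 (-2.20), the S-phase and G2 cyclin, and AURKB (-2.05), the chromosomal passenger kinase. Replication promoters carried a CHR in 1 of 32 cases (3.12%) and a CCAAT box in 20 of 32 (62.5%). Over the whole table, genes with both motifs had a median difference of -0.18 (738 genes, of which 25.2% rose and 42.4% fell), and genes with neither had -0.01 (5749 genes, of which 33.0% rose and 35.0% fell), under the authors' scaling. A letter match is a description of the window and not a binding site.

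DNA replication genes fell as broadly. Of 38 listed, 37 fell and 1, PCNA, did not pass (median -1.63). Origin and helicase genes fell in 16 of 16 cases (median -1.90), and polymerase and fork genes in 21 of 22 (median -1.41). MCM2, a subunit of the replicative helicase, had 2397, 2556 and 2932 normalised reads at D2, against 25979, 24231 and 29229 at D0 (-3.33 ± 0.14, adjusted p = 4.8e-15). Its partners MCM7 (-3.11) and MCM3 (-2.84) and the polymerase alpha subunit POLA1 (-2.86) fell in similar measure. PCNA, the sliding clamp and also a p53 target, had 32650, 34472 and 38830 at D2, against 27590, 30963 and 33949 at D0. These ranges overlap (0.20 ± 0.12, adjusted p = 0.159), though with the letters as a replicate block the same difference passed (adjusted p = 0.0301), as it did under equal totals (0.58).

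Control of G1 was mixed, with 6 of 23 genes higher, 14 lower and a median of -0.56 (8 higher and 11 lower under equal totals). CDKN2B, the CDK4 inhibitor p15, rose to 1341, 1309 and 1341 normalised reads at D2, against 267.3, 314.8 and 241.5 at D0 (2.28 ± 0.12). Cyclin D1, CCND1, rose to 79400, 68679 and 70765 at D2, against 32161, 35125 and 37227 at D0 (1.07 ± 0.11). Both are G1 regulators that act in opposite directions on CDK4. CDKN2A (-1.37), CDC25A (-1.22) and SKP2 (-1.18) fell.

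Thymidylate synthase, the enzyme that 5-FU blocks, lost heavy pool mRNA. TYMS (chromosome 18, 657604 to 673578) had 9551, 9147 and 8969 normalised reads at D2, against 23352, 22829 and 24563 at D0 (-1.35 ± 0.09, adjusted p = 7.11e-12). DUT, which removes dUTP, had 1301, 1372 and 1454 at D2, against 5558, 5628 and 6040 at D0 (-2.06 ± 0.10), and SHMT2, the mitochondrial enzyme that supplies folate-bound carbon, had 7444, 8489 and 9795 at D2, against 34858, 38994 and 42452 at D0 (-2.18 ± 0.12). The enzymes around thymidylate moved together: 9 of 9 fell (median -1.35). The ribonucleotide reductase subunits RRM1 (-1.49) and RRM2 fell, as did SAMHD1 (-0.45), which degrades deoxynucleotides and whose call was lost under equal totals. RRM2 stood at 19339, 18052 and 19238 at D2, against 36678, 37666 and 43416 at D0 (-1.05 ± 0.11). Enzymes that convert 5-FU or handle pyrimidines split, with 6 of 9 lower, such as UMPS (-1.01), which makes the first 5-FU nucleotide, and 2 higher, CMPK1 (0.84) and NME1 (0.66), which phosphorylate pyrimidine nucleotides.

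Repair genes were mostly lower. Of 35 listed, 25 fell, 1 rose and 9 did not pass (median -0.98). The mismatch-repair subunit MSH6 had 545.2, 540.7 and 577.6 normalised reads at D2, against 3421, 3238 and 3845 at D0 (-2.65 ± 0.09). PARP1, the sensor of strand breaks, had 7989, 7682 and 8692 at D2, against 43224, 42135 and 46272 at D0 (-2.43 ± 0.11). Glycosylases that remove uracil or fluorouracil from DNA differed among themselves: UNG fell (-1.67 ± 0.09), SMUG1 rose (0.38), and TDG (0.05, though called at 0.43 under equal totals) and MBD4 (0.02) did not pass.

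Apoptosis genes leaned upward, with 18 of 30 higher and 5 lower (median 0.74), or 25 higher and 1 lower under equal totals. BIRC3, an inhibitor of apoptosis that NF-kB induces, had 811.8, 790.4 and 625.1 normalised reads at D2, against 61.77, 63.75 and 50.83 at D0 (3.63 ± 0.17). The death receptor FAS had 2366, 2028 and 1564 at D2, against 160, 186.3 and 195.5 at D0 (3.44 ± 0.14), and PMAIP1, the BH3 protein NOXA, had 12878, 11622 and 12650 at D2, against 1700, 1593 and 1595 at D0 (2.92 ± 0.11). Genes of both sides of the pathway are thus among the rises. CASP8 (-0.98), the initiator caspase, and BCL2 (-0.62), which restrains death, were among the falls, and the BCL2 call was lost under equal totals.

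Tubulin mRNAs were among the steepest abundant falls. All 11 listed tubulins fell, with a median of -1.51, and 10 of 11 did so under equal totals. TUBB (chromosome 6, 30720201 to 30725426) had 22016, 22153 and 23616 normalised reads at D2, against 193324, 199107 and 228163 at D0 (-3.19 ± 0.10, adjusted p = 8.68e-17). TUBA1B had 33246, 37592 and 43135 at D2, against 289452, 306985 and 347049 at D0 (-3.05 ± 0.11). Per kilobase, TUBA1B ranked 120 among protein-coding genes at D2 and 10 at D0, and TUBB 221 at D2 and 19 at D0. TUBB6, another beta tubulin, moved least (-0.30, or 0.08 and not called under equal totals). The tubulin genes share long near-identical stretches, so reads may have been split between them.

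Alpha and beta tubulin mRNAs are known to be degraded on the ribosome when free tubulin is in excess, through the first amino acids of the nascent chain. The first 30 coding bases are shown for that reason (GENCODE 29, GRCh38, 5′ to 3′), with the first 4 codons in capitals.
TUBA1B: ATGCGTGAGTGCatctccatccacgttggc
TUBA4A: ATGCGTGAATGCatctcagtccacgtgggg
TUBB: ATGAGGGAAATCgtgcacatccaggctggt
TUBB4B: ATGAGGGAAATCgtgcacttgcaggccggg
TUBB2A: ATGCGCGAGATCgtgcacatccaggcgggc
TUBB3: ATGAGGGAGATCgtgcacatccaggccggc
TUBB6: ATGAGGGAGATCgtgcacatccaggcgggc
TUBG1: ATGCCGAGGGAAatcatcaccctacagttg
TUBA1A and TUBA1C have the same 30 bases as TUBA1B. TUBB4B (-2.31) matches TUBB in all 12 capital bases, TUBB3 (-1.51) and TUBB6 (-0.30) differ from it at 1, and the gamma tubulin TUBG1 (-0.75), which nucleates microtubules and lies outside that mechanism, differs at 8. These are counts of bases and not of amino acids. The beta tubulins shown encode the same first 4 amino acids, since none of their base differences there changes one. Whether that mechanism took part in the falls was not tested.

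Heat shock and chaperone genes fell with them, 14 of 18 and none higher (median -1.39), or 12 lower and 3 higher under equal totals. HSPA8, the constitutive Hsp70, had 17679, 18852 and 20673 normalised reads at D2, against 178497, 160019 and 189725 at D0 (-3.21 ± 0.13), and ranked 409 per kilobase at D2 and 37 at D0. HSP90AB1 had 44718, 44481 and 50709 at D2, against 252379, 235652 and 282719 at D0 (-2.46 ± 0.14). HSPA1A (-2.75) and HSPA1B (-2.79) are near-identical copies, and their values are uncertain. ER folding genes showed no common direction, with 5 of 20 higher, 9 lower and a median of -0.31 that became 0.07 under equal totals (6 higher and 4 lower). XBP1, a transcription factor of the unfolded protein response, fell (-1.14 ± 0.11).

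The translation machinery divided by class. Cytosolic ribosomal protein mRNAs, which open with a terminal oligopyrimidine (TOP) tract read by mTOR, had 20 of 80 higher and 21 lower, with a median of 0.06. Under equal totals 54 were higher and 9 lower (median 0.44). The highest was RPL39, a small protein of the exit tunnel, with 12770, 11647 and 11413 normalised reads at D2, against 7081, 6930 and 6156 at D0 (0.83 ± 0.13). RPL3, a core protein of the peptidyl transferase region, was the lowest, with 43120, 46233 and 51974 at D2, against 137453, 142476 and 140126 at D0 (-1.58). Paralogues outside the list went further. RPS27L, a p53 target, had 8041, 7379 and 7549 at D2, against 1632, 1520 and 1317 at D0 (2.37 ± 0.11), and RPL22L1 had 953, 1091 and 1034 at D2, against 5357, 6018 and 5800 at D0 (-2.48 ± 0.11).

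Other TOP mRNAs fell in 12 of 15 cases and rose in 1 (median -0.65; 9 lower and 2 higher under equal totals). EEF1A1, the main elongation factor, had 295904, 291563 and 318757 normalised reads at D2, against 590961, 618488 and 638777 at D0 (-1.03), and ranked 15 per kilobase at D2 and 7 at D0. Genes that build ribosomes fell in 41 of 46 cases with none higher (median -0.97; 34 lower and 4 higher under equal totals), led by the helicase DDX18 (-2.59), the rRNA acetyltransferase NAT10 (-2.58) and nucleolin, NCL (-2.47). Initiation and mTOR genes were lower in 24 of 45 cases and higher in 7 (median -0.26, or 0.12 under equal totals with 13 lower and 15 higher). EIF4G1, the scaffold of cap-dependent initiation, had 10160, 11047 and 12388 at D2, against 38825, 34161 and 40495 at D0 (-1.76 ± 0.12), and DEPTOR (1.34), an mTOR inhibitor, rose.

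Aminoacyl-tRNA synthetases fell without exception (20 of 20, median -1.31). AARS1, which charges alanine tRNA, had 3050, 3423 and 4002 normalised reads at D2, against 18557, 19299 and 21916 at D0 (-2.52 ± 0.18). AARS1 is a known target of ATF4, the transcription factor of the amino acid response. Of 30 listed ATF4 targets and regulators 21 were lower and 6 higher (median -1.11). ATF4 itself had 7029, 6618 and 6830 at D2, against 30752, 33203 and 32092 at D0 (-2.23 ± 0.09). PHGDH, the first enzyme of serine synthesis, had 2387, 2661 and 3220 at D2, against 26478, 31309 and 30693 at D0 (-3.43 ± 0.16). ATF3 (2.22), which is also induced by other stresses, and DDIT3 (0.81), the death factor CHOP, were among the 6 that rose.

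Splicing factors fell without exception (22 of 22, median -1.39). SRSF2 had 5414, 5699 and 5794 normalised reads at D2, against 29703, 32348 and 35659 at D0 (-2.53 ± 0.09), and HNRNPU had 8398, 7513 and 7340 at D2, against 41141, 39042 and 48351 at D0 (-2.46 ± 0.11). Chromatin and lamina genes fell in 18 of 23 cases and rose in 2 (median -1.71; 16 lower and 5 higher under equal totals). LMNB1, the lamin whose loss marks senescent cells, had 1776, 1660 and 1726 at D2, against 11470, 11407 and 13411 at D0 (-2.81 ± 0.12), and HMGB2, a chromatin protein that also declines with arrest, had 5667, 5567 and 6123 at D2, against 36108, 38712 and 37453 at D0 (-2.69 ± 0.11). The 2 that rose under the authors' scaling were the histone genes H2AC6 (2.18 ± 0.14) and H2BC12 (1.80).

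Of 36 listed interferon genes 22 rose, 9 fell and 5 did not pass (median 0.64), and under equal totals 25 rose and 3 fell. The full list held 46 genes, 25 of them effectors, and those not listed, such as OAS1, IFI44L and RSAD2, were not analysed. ISG15, a ubiquitin-like protein of antiviral defence, had 27392, 36576 and 39432 normalised reads at D2, against 3060, 3054 and 2830 at D0 (3.51 ± 0.12, adjusted p = 1.7e-16). Among 19 interferon effectors 14 rose and 1 fell (16 and 0 under equal totals). Among 17 sensors and signalling genes 8 rose and 8 fell, a split that was 9 and 3 under equal totals. TLR3, a receptor for double-stranded RNA, rose (3.32 ± 0.19), while STAT2 (-0.97) and IRF1 (-0.86), which carry interferon signals, fell. Antigen presentation rose in 14 of 15 cases (median 0.90), with TAP1 (1.86), a peptide transporter, and CD274, the checkpoint ligand PD-L1, at 134.4, 144.4 and 141.2 at D2, against 28.35, 22.56 and 35.19 at D0 (2.27).

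Genes of secreted factors and NF-kB rose in 22 of 32 listed cases and fell in 2 (median 1.35). Among the rises were 19 of 21 listed secreted or surface products. This set had 42 genes, 30 of them secreted or surface. Those not listed, such as IL6, IL1B and TNF, were not analysed. Of 11 signalling genes 3 rose, 2 fell and 6 did not pass (7 rose and 1 fell under equal totals). ICAM1 (2.93), an adhesion molecule, IL11 (2.73), a cytokine, and AREG (2.51), an EGF receptor ligand, were among the largest of these rises. The chemokine CXCL8 rose on a low level, with 67.96, 61.14 and 67.95 normalised reads at D2, against 12.15, 22.56 and 11.73 at D0 (2.08 ± 0.21). Of the factor's own subunits, NFKB1 fell (-1.04) and RELA (-0.06, though called at 0.32 under equal totals) did not pass.

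Among the largest rises over the whole table were LGALS7B (7.03), PTAFR (6.15), KRTAP3-1 (6.07), NECTIN4 (6.01), LINC00324 (5.35), EBI3 (5.18), CYP4F2 (5.13), HMCN2 (4.99), KLHDC7A (4.94), COL17A1 (4.91) and WNT7A (4.75). PTAFR, the receptor of platelet-activating factor, had 7212, 7384 and 7732 normalised reads at D2, against 125.6, 99.05 and 89.94 at D0. NECTIN4, an adhesion protein of epithelia, had 1988, 1862 and 2019 at D2, against 43.54, 34.32 and 16.62 at D0. COL17A1 is the collagen of hemidesmosomes, and LGALS7B encodes galectin-7. LGALS7B and KRTAP3-1 have near-identical copies, so their values are uncertain, and LGALS7B stood at only 3.038, 2.942 and 5.865 at D0.

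Epithelial and junction genes rose in 20 of 25 cases and fell in 5 (median 0.54; 20 and 2 under equal totals). CDH1, E-cadherin, had 3290, 4225 and 4275 normalised reads at D2, against 1620, 1518 and 1340 at D0 (1.39 ± 0.16). Keratins of simple epithelia parted, since KRT8 fell (-0.53 ± 0.14) and KRT18, its partner, was higher by 0.36. The KRT8 call was lost under equal totals, and the KRT18 call was lost without D0 library A (0.26). The splicing regulator ESRP1 (-1.11) and the transcription factor GRHL2 (-0.95), both keepers of epithelial identity, fell. Among mesenchymal genes 7 of 13 rose and 2 fell, with SNAI2, the repressor SLUG, at 163.9, 137.8 and 135.9 at D2, against 5.063, 3.923 and 9.776 at D0 (4.42 ± 0.25), and the intermediate filament VIM falling (-2.36 ± 0.23). YAP targets rose in 12 of 15 cases (median 0.71), with tissue factor F3 (2.47) first. Colon identity genes were mostly not listed; of the 3 that were, KRT20 (1.79) and CA2 (1.24) rose and CDX2 (-0.08, though called at 0.30 under equal totals) did not pass. From the other lineages, the myeloid integrin ITGAM (4.51 ± 0.37), at 299.8, 311.6 and 326.9 at D2 against 13.16, 14.71 and 10.75 at D0, and the muscle genes DES (1.79) and ACTN2 (1.39) rose from low levels.

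Of 31 Wnt, MYC and Notch genes 11 were higher and 12 lower (median 0.12) under the authors' scaling, and 17 higher and 5 lower under equal totals (median 0.50). The shares under the authors' scaling are near those over all genes, 30.3% higher and 34.4% lower. Of 20 MYC and Wnt genes 7 were higher and 8 lower, and of 11 Notch genes 4 were higher and 4 lower, under that scaling. MXD1 (2.48), a MYC antagonist, DKK1 (2.05), a Wnt antagonist, and the Notch gene NOTCH3 (1.96) rose. AXIN2, a direct Wnt target, had 259.8, 257.1 and 283.9 normalised reads at D2, against 1084, 1082 and 1023 at D0 (-1.99 ± 0.11), and beta-catenin, CTNNB1, fell (-1.30 ± 0.15). MYC had 22536, 22724 and 22747 at D2, against 32804, 33549 and 36359 at D0 (-0.59 ± 0.11), a call lost under equal totals (-0.21).

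Metabolic genes also split by role. The glycolytic enzymes fell in 14 of 20 cases and rose in 2 (median -0.90), for example ENO1 (-2.18 ± 0.15) with 58329, 60610 and 69306 normalised reads at D2, against 249169, 292466 and 310537 at D0. Glucose uptake and hypoxia genes rose in 7 of 11 cases and fell in 1 (median 0.67; 9 and 0 under equal totals), led by the transporter SLC2A3 (2.42 ± 0.19). Nuclear genes of the respiratory chain had a median of 0.03 (12 of 37 higher and 15 lower; 0.00 by TMM, and 0.41 under equal totals with 22 higher and 9 lower), and ran between COX6A1 (1.29), a small subunit of complex IV, and NDUFS1 (-1.27), the largest subunit of complex I. Over all genes 30.3% were higher and 34.4% lower under the authors' scaling, near the shares of these respiratory genes. Mitochondrial ribosomal proteins fell in 25 of 33 cases (median -0.54) and proteasome subunits in 27 of 30 (median -0.54), counts that were 15 and 13 under equal totals, with 7 and 2 higher. Lysosome and autophagy genes rose in 24 of 40 cases and fell in 6 (median 0.41; 33 and 3 under equal totals), with the receptor OPTN at 3126, 2799 and 2598 at D2, against 553.9, 524.7 and 481.9 at D0 (2.45 ± 0.09).

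Cholesterol genes were lower in 17 of 31 cases and higher in 9 (median -0.36), but under equal totals 7 were lower and 12 higher (median 0.03). Iron and oxidative stress genes were lower in 13 of 24 cases and higher in 3 (median -0.37), and under equal totals 9 were lower and 9 higher (median 0.01). NQO1, an NRF2 target, fell (-1.70 ± 0.09), as did the pentose phosphate enzyme PGD (-1.88). The ferritin light chain FTL had a difference of -0.37 that was 0.01 under equal totals, so it has no direction here. Of 8 listed polyamine enzymes and their regulators 3 rose and 4 fell, or 4 and 2 under equal totals. SAT1, which breaks polyamines down and is a p53 target, rose (2.44 ± 0.12). Of the synthesis enzymes, ODC1, which starts the pathway, fell (-1.38 ± 0.10), and AMD1, which makes the aminopropyl donor, rose (0.45 ± 0.12). Drug efflux genes rose in 7 of 8 cases (median 0.64), with ABCG2, the breast cancer resistance protein, at 317.2, 248.3 and 295.2 normalised reads at D2, against 85.06, 81.4 and 108.5 at D0 (1.64 ± 0.18).

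**Figure D2:**
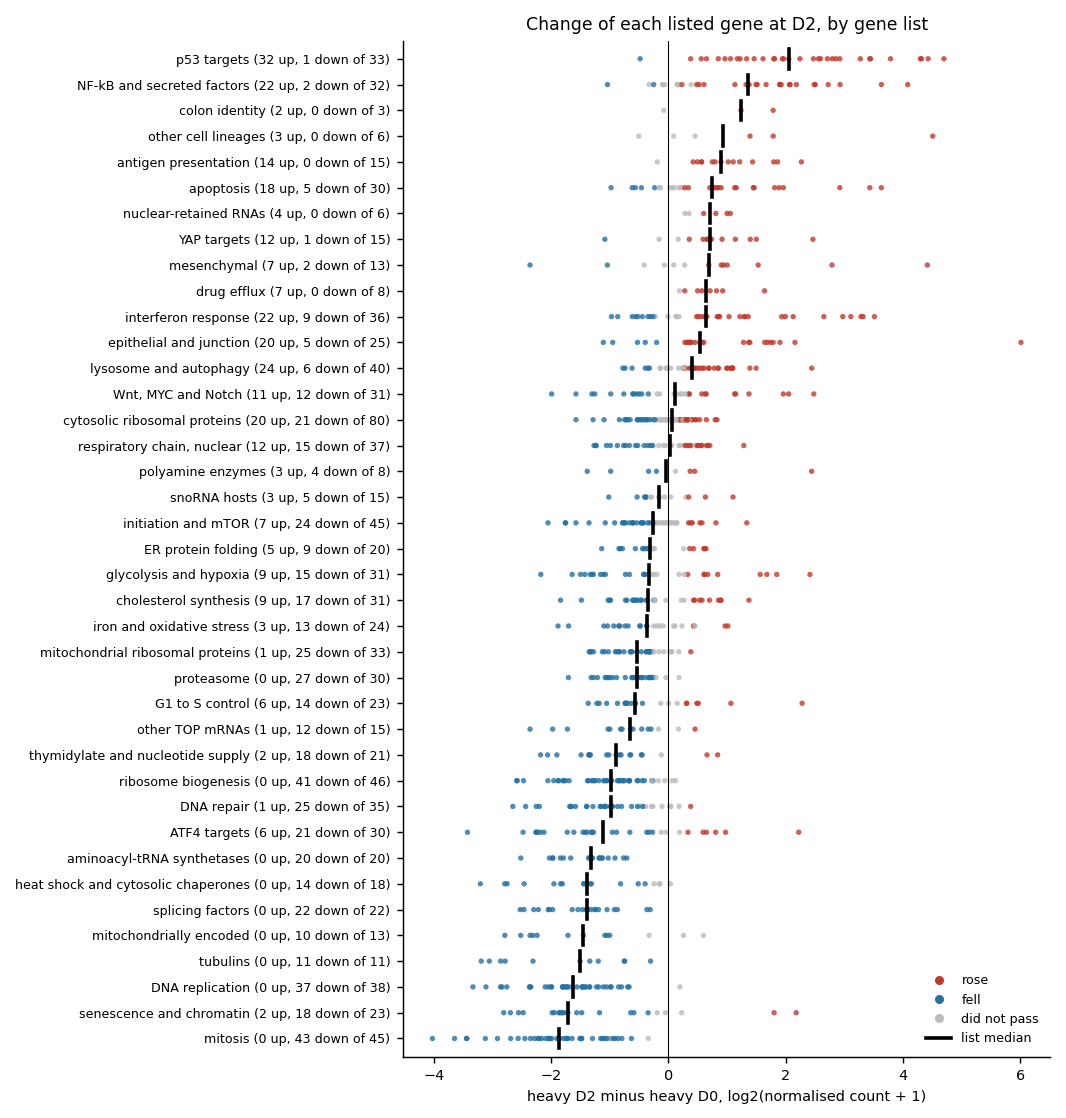
D2 minus D0 of each listed gene in the heavy pool, as log2(normalised count + 1), by gene list, with lists ordered by their median (black bar) and points coloured by whether the gene rose, fell or did not pass. The p53 targets have the highest median of the larger lists (2.05) and mitosis genes are near the bottom (-1.86), while ribosomal proteins straddle 0 (median 0.06, and 0.44 under equal totals).

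Among the largest falls over the whole table, next to PLK1, HMMR, CCNB1, CDC20 and PHGDH, were the helicase PIF1 (-4.39), PCK2 (-3.69), the mitochondrial PEP carboxykinase that ATF4 controls, LRRC46 (-3.65), TUBA1B-AS1 (-3.65) and HSPA8P1 (-3.39). TUBA1B-AS1 lies antisense to TUBA1B and HSPA8P1 is a processed copy of HSPA8. Whether reads were counted by strand is not known from the sources used here, so the reads of TUBA1B-AS1 and TUBA1B cannot be told apart. HSPA8P1 lies on another chromosome than HSPA8, and since it is a near copy its reads may be those of HSPA8.

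Differences were lower for mRNAs that had a higher level before the drug. Protein-coding genes were put in 5 equal groups of 2478 by their cytoplasmic level at D0, a measure from libraries other than the heavy ones. From the lowest to the highest group the median difference was 0.46, 0.09, -0.06, -0.22 and -0.36, and under equal totals 0.83, 0.47, 0.32, 0.16 and 0.02. The order of the groups is thus the same under both scalings, but their signs are not. Under the authors' scaling, in the lowest group 47.74% of genes rose and 13.96% fell, and in the highest 19.01% rose and 57.02% fell. Under equal totals 63.24% rose and 6.90% fell in the lowest group, and 38.78% rose and 36.97% fell in the highest. Across 12390 genes the rank correlation of difference and level was -0.35 under either scaling (letters A, B and C: -0.33, -0.36 and -0.33). The correlation was 0.03 with transcript length and -0.04 with GC content. Genes are not independent replicates, so these are descriptions. A weak gene that was silent in any library is absent from the table, so the lowest group may lack falls. How far this shapes the order of the groups was not tested. By biotype, lincRNAs rose in 208 of 528 cases and fell in 57 (median 0.41), while processed pseudogenes rose in 127 and fell in 448 of 1337 (median -0.22, but 0.15 under equal totals, with 395 higher and 276 lower).

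**Figure D3:**
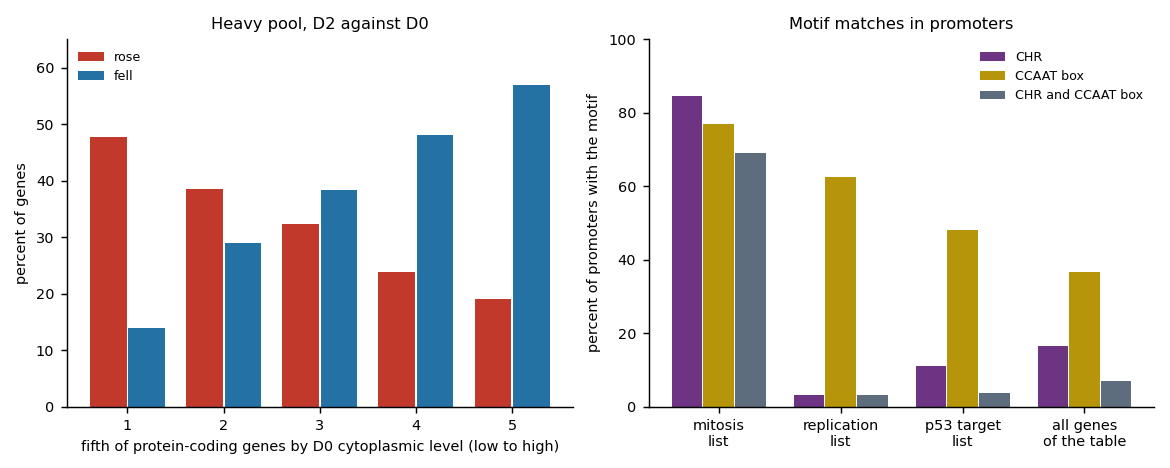
Left, percent of protein-coding genes that rose or fell in the heavy pool at D2 against D0, in 5 equal groups by D0 cytoplasmic level, under the authors' scaling: rises are fewer in the highest group (19.01%) than in the lowest (47.74%), and falls more (57.02% against 13.96%), while under equal totals 38.78% of the highest group rose and 36.97% fell. Right, percent of promoter entries that hold a CHR, a CCAAT box or both, for 3 gene lists and for all genes of the table: the mitosis list stands at 84.6% for CHR and the table at 16.6%.

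RNAs that the nucleus normally retains were few in the heavy pool but gained share. NEAT1, the scaffold of paraspeckles and a p53 target, had 287.7, 565.8 and 245.4 normalised reads at D2, against 140.8, 176.5 and 176.9 at D0 (1.06 ± 0.22). MALAT1 (1.00) was higher too, with a call that was lost without D0 library A (0.77) or D2 library B (0.64). The 6 RNAs of this list made up 0.0130 to 0.0169% of reads at D2 and 0.00709 to 0.00744% at D0, and 4 of 6 rose. For both RNAs letter B was the highest D2 library. Whether carry-over of nuclear RNA took part was not tested. Hosts of small nucleolar RNAs had 3 of 15 higher and 5 lower (median -0.17), or 5 higher and 1 lower under equal totals (median 0.21). Over all genes 30.3% were higher and 34.4% lower under the authors' scaling, so these counts show no direction particular to the hosts.

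Transcripts of the mitochondrial genome, which are translated inside mitochondria, fell in the heavy pool. Of 13 protein-coding ones 10 fell and none rose (median -1.45; 9 fell and 2 rose under equal totals), and their share of reads was 0.694 to 1.44% at D2, against 1.26 to 1.89% at D0. MT-ND2, a complex I subunit, had 8079, 7747 and 5175 normalised reads at D2, against 35588, 45475 and 66067 at D0 (-2.79 ± 0.28). MT-ATP8, a subunit of ATP synthase, had 6669, 7144 and 4294 at D2, against 22462, 30001 and 40968 at D0 (-2.36 ± 0.26, adjusted p = 5.27e-08). MT-CO1 did not pass (-0.33, adjusted p = 0.282). Mitochondria were pelleted before the gradient, and what remained of them in each lysate was not tested.

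Against D1, the heavy pool at D2 showed how the second day of exposure differed from the first. Over all genes 4204 were higher at D2 (26.5%) and 3929 lower (24.7%), with a median of 0.05; under equal totals 6258 were higher and 2783 lower. This comparison shares the D2 libraries with the one above, so values of the members are given side by side without an overlap.

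Of the 33 p53 targets 15 were higher at D2 than at D1, 5 lower and 13 did not pass (median 0.28), and under equal totals 22 were higher and 5 lower. CDKN1A was higher again, with 10791, 10347 and 9600 normalised reads at D0, 95256, 87552 and 83395 at D1, and 256327, 260524 and 281796 at D2 for letters A, B and C (D2 minus D1, 1.59, adjusted p = 6.97e-12). MDM2 overlapped, with 16544, 14183 and 12853 at D2, against 17839, 14906 and 15455 at D1 (-0.15, adjusted p = 0.266). DDB2, which recognises damaged bases, had 6987, 8158 and 9162 at D2, against 14396, 17400 and 14552 at D1 (-0.93, adjusted p = 1.24e-07), and stayed above its D0 values of 3768, 4003 and 3818 (1.06 ± 0.10). XPC was lower at D2 than at D1, where it had 6414, 7444 and 5947 (-1.71). The arrest gene, the feedback ligase and the repair genes thus differed in course between D1 and D2.

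Cell-cycle and thymidylate genes had their own timing. Replication genes were lower at D2 than at D1 in 38 of 38 cases (median -1.35) and mitosis genes in 44 of 45 (median -1.43). PLK1 was below its D0 values at D1, with 5255, 6475 and 6015 normalised reads, and lower again at D2 (-1.84). RRM2 stood at 43632, 46826 and 49559 at D1, above its D0 values, before the lower D2 values (-1.30), and PCNA at 48839, 61773 and 64331 at D1 (-0.72, adjusted p = 3.68e-05). TYMS was 18510, 20269 and 18609 at D1 (-1.05). At D1 the RRM2 and PCNA libraries were thus all above those of D0, and the PLK1 and TYMS libraries all below them, a difference not tested here.

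The largest drops between D1 and D2 included SFPQ, an RNA-binding protein of the nucleus. SFPQ had 2996, 3394 and 3417 normalised reads at D2, against 25023, 27508 and 21426 at D1 (-2.91), and its D0 values of 25573, 24084 and 29424 overlapped those of D1. Mitochondrial transcripts were also among them: MTND2P28 (-3.21), a nuclear copy of MT-ND2 whose reads may be those of the original, MT-ND4L (-2.99), MT-ND2 (-2.90) and MT-ATP8 (-2.70). The share of mitochondrially encoded reads was 2.06 to 3.66% at D1, above that of D2. By contrast MARS1, the methionyl-tRNA synthetase, had 5490, 6066 and 6963 at D2, against 8117, 9767 and 5909 at D1, which overlap (-0.34, adjusted p = 0.0585), while its D0 values were 22202, 23674 and 26988.

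The largest gains from the second day were LINC00324 (2.71), SLPI (2.54), a protease inhibitor of epithelia, SYT15-AS1 (2.45), LIVAR (2.42), LINC00887 (2.40) and KRTAP3-1 (2.39). SYT15-AS1 is antisense to its namesake and is uncertain for the reason given above. Ribosomal protein mRNAs, with a median near 0 against D0 under the authors' scaling, were higher at D2 than at D1 in 53 of 80 cases and lower in 6 (median 0.35). Their share of reads was 6.88 to 7.30% at D2 and 5.39 to 5.47% at D1. ISG15 was higher again than at D1, where it had 8969, 10269 and 9228 normalised reads (1.85, adjusted p = 3.35e-11). Of the 30 ATF4 targets and regulators 5 were higher than at D1 and 10 lower (median 0.03), a split that was 14 and 9 under equal totals.

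**Figure D4:**
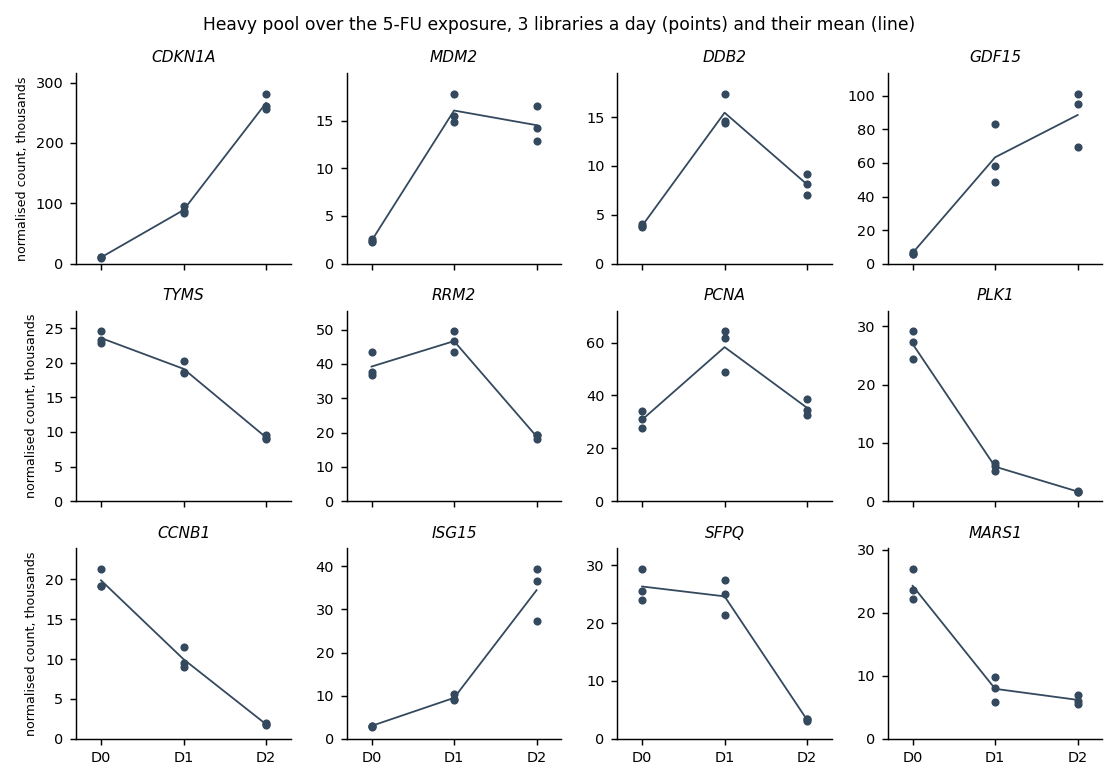
Normalised counts (linear axes from 0) of 12 genes in the heavy pool at D0, D1 and D2; the axes are in units of k; points are the 3 libraries of a day and lines their means. CDKN1A climbs on both days, MDM2 levels off after D1, DDB2 and PCNA peak at D1, SFPQ drops mainly between D1 and D2, ISG15 is highest at D2, and PLK1 and MARS1 drop mostly before D1.

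Whether the heavy pool changed more than the cytoplasm was asked by the difference of the 2 changes, D2 minus D0 in the heavy pool less D2 minus D0 in the cytoplasm. A negative value means that an mRNA lost more, or gained less, in the heavy pool. Only 6 genes were higher by this measure (0.0378% of those tested) and 322 lower (2.03%), with a median of -0.10. At an unadjusted p under 0.05 there were 578 higher and 1938 lower. Under equal totals values shifted up by a median of 0.49, and 95 genes were higher and 29 lower, so the preponderance of lower genes rests on the authors' scaling. With the letters in the fit as a replicate block within each fraction 48 were higher and 585 lower, and without cytoplasmic library D2 C 290 were higher and 937 lower.

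Among p53 targets 1 of 33, DDB2, was lower and the other 32 did not pass; the median of the difference was 0.12. DDB2 differed by -1.05 ± 0.21 (adjusted p = 0.00581), having risen by 1.06 in the heavy pool and by 2.11 in the cytoplasm. CDKN1A rose by 4.70 in the heavy pool and by 4.51 in the cytoplasm (difference 0.19, not passed). The DDB2 call was lost under equal totals.

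Mitochondrially encoded transcripts parted most. In 10 of 13 the heavy pool change was lower (median -2.53), and in the cytoplasm 4 rose and none fell (median 0.96). MT-ATP8 fell by 2.36 in the heavy pool and was higher by 1.11 in the cytoplasm (difference -3.47 ± 0.51, adjusted p = 0.000243). For MT-CO2 the difference was -3.01, with -1.05 in the heavy pool and 1.96 in the cytoplasm. The calls of both held under each alternative tried, equal totals included. Their share of cytoplasmic reads was 6.999 to 11.1% at D2, against 3.77 to 5.58% at D0.

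The tubulins with a called difference lost more in the heavy pool than in the cytoplasm: 7 of 11 were lower and 4 did not pass (median -0.94). Among heat shock and chaperone genes 3 of 18 were lower and 15 did not pass. TUBA1B fell by 3.05 in the heavy pool and by 1.54 in the cytoplasm (-1.51 ± 0.22, adjusted p = 0.000243), and TUBB fell by 3.19 in the heavy pool and by 2.22 in the cytoplasm (-0.97, adjusted p = 0.0141). For HSPA8 the difference was -1.34 (adjusted p = 0.000243). Under equal totals TUBA1B and HSPA8 kept their calls, and they were then the only tubulin of the 11 and the only gene of these 18 called. Mitosis genes were lower in 9 of 45 cases and replication genes in 11 of 38, with CDC20 at -1.46 and CCNB1 at -1.32 ± 0.16 (adjusted p = 3.3e-05). For the other genes of these lists the difference between fractions did not pass. Under equal totals CDC20 was the only mitosis gene still called (-0.96), CCNB1 was not (adjusted p = 0.0779), and 0 of 38 replication genes were.

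ATF4 had a difference of -1.24 (adjusted p = 0.008), with -2.23 in the heavy pool and -0.99 in the cytoplasm. ATF4 mRNA has short upstream reading frames that govern its ribosome load. Translation genes that were lower by this measure included EIF3C (-1.25), EIF3D (-0.97), EIF4B (-0.81), EEF1A1 (-0.70, adjusted p = 0.0482) and the ribosomal protein RPL3 (-0.81). The calls of these translation genes were all lost under equal totals. Of the ribosomal proteins 2 of 80 were lower and none higher. NEAT1 (1.84 ± 0.37, adjusted p = 0.0063), which is non-coding, stood highest, having risen in the heavy pool and being at -0.78 in the cytoplasm. UBE2D1 (1.25), a ubiquitin-conjugating enzyme, and EMP1 (0.71), an epithelial membrane protein, were among the other 5. The calls of UBE2D1 and EMP1 were lost when some single library was left out.

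**Figure D5:**
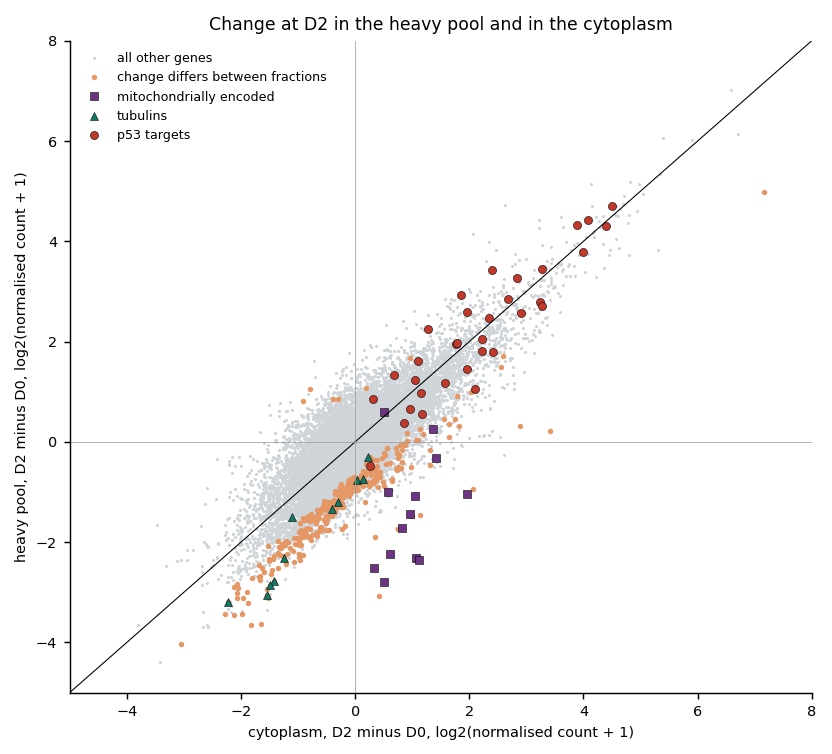
Change at D2 in the heavy pool (vertical) against the change in the cytoplasm (horizontal), both as D2 minus D0 of log2(normalised count + 1), 1 point per gene, with the line of equal change. The p53 targets lie along the line (CDKN1A at 4.70 and 4.51), the tubulins below it (TUBA1B at -3.05 and -1.54), and mitochondrially encoded genes lie well below it on the right (MT-ATP8 at -2.36 and 1.11).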

How the data were processed

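Heavy polysomal and cytoplasmic RNA was sequenced as poly(A)-selected libraries that mark strand with dUTP, per the labels' protocols. The submitters' processing notes name FastQC 0.11.9, cutadapt 3.2, STAR 2.7.9a, featureCounts of Subread 2.0.1, DESeq2 1.30.1 and GRCh38. The deposited values are a signal per gene, the authors' normalised read counts, each library divided by its own size factor. Neither the strand setting of featureCounts nor the filter that left these genes is stated. Of 54 columns, 36 belong to the samples and 18 were not used. Within 0.01, values were whole multiples of a smallest step per library, taken as 1 read, and depths are sums of these multiples; in 24 libraries the lowest value was over 1 step, so the step is inferred there, and count models were not run; PCR duplicates are counted in them. Symbols were found for 15856 of 15891 identifiers, and GENCODE 29 gave coordinates for 15799, of which 12399 genes are protein-coding.

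The scale used was log2(value + 1). Group means of the 18 heavy libraries (6 days) were modelled with limma 3.58.1 in R 4.3.3, by lmFit and eBayes with a trend in the variance, and the difference between fractions over all 36 libraries. Tests were two-sided, with Benjamini-Hochberg adjustment over the whole table. The fit was tested on simulated data. The 39 gene lists (1080 genes) and the comparison itself were chosen with earlier results of these data known, so a list's direction is not independent evidence. Genes were named by rule: the 12 largest rises and 12 largest falls with a mean of at least 100 in either group and 1 sign over the letters, 4 called members of each list, a fixed set, and 6 at either end of the other comparisons. Further genes were chosen after their values were seen. A few genes are left out of the text. Promoters come from RefSeq (GRCh38.p14), of which 35116 entries were searched.

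Since a letter is taken here as a batch, letters may pair samples, but the main fits left the letter out. Deviations from group means of same-letter heavy libraries had a mean r of 0.068 over days (20 of 45 pairs over 0.1) and of 0.016 for D2 with D0. For heavy libraries of other letters the mean r over days was -0.034 (10 of 90 pairs over 0.1). In the cytoplasm the mean r over days was 0.191 for the same letter (27 of 45) and -0.093 for other letters (27 of 90). Alternatives were a pseudocount of 10, a filter of at least 10 in 3 libraries, equal totals, TMM factors, the letter as a block, only the compared groups, each library left out in turn and, chosen after seeing the data, vooma weights.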

Additional observations from a re-analysis of the deposited data

Results flagged for a closer look

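For 328 genes the change at D2 differed between the heavy pool and the cytoplasm by limma's test of the difference itself, and the 52 of them that the naming rule takes are given here. Values are D2 minus D0 in the heavy pool less D2 minus D0 in the cytoplasm, on the log2(value + 1) scale. The difference was negative for 322 of the 328 and for 47 of these 52. Under equal totals 36 of the 52 calls were lost.

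Higher in the heavy pool were NEAT1 (1.84), UBE2D1 (1.25), TMEM168 (1.15), MMGT1 (0.88) and EMP1 (0.71). NEAT1 is a nuclear long non-coding RNA.

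Mitochondrial transcripts and their nuclear copies stood lowest, with MTND2P28 (-3.49), MT-ATP8 (-3.47), MT-ND3 (-3.38), MT-ND2 (-3.29), MT-CO2 (-3.01) and MTCO2P12 (-3.01). MTND2P28 and MTCO2P12 are near-identical to the originals, so reads cannot be assigned to one or the other with certainty.

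Among genes of cell cycle, nucleotide supply and repair, the values were CDC20 (-1.46), XRCC1 (-1.34), CCNB1 (-1.32), CDT1 (-1.16), MCM7 (-1.15), DDB2 (-1.05), CHAF1B (-1.01), MTHFD1 (-0.96), RRM2 (-0.83) and CHEK2 (-0.80).

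In translation and ribosome building they were EIF3C (-1.25), NOP56 (-1.11), RPSA (-1.10), FARSA (-0.99), EIF3D (-0.97), BYSL (-0.97), RPL3 (-0.81), EIF4B (-0.81), HARS1 (-0.75), MRPS5 (-0.75), EEF1A1 (-0.70) and DAP3 (-0.66).

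In the cytoskeleton, folding and RNA handling they were TUBA1B (-1.51), TUBA1C (-1.37), HSPA8 (-1.34), KRT8 (-1.33), PSMC3 (-0.96), HNRNPK (-0.87), PSMD4 (-0.80), HSP90AB1 (-0.78) and HNRNPC (-0.75). KRT8 fell in the heavy pool (-0.53) and rose in the cytoplasm (0.80).

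In metabolism and the amino acid response they were ATF4 (-1.24), PGD (-1.21), PHGDH (-1.15), ENO1 (-1.09), PKM (-1.08), TKT (-0.95), UQCRC1 (-0.84), FDPS (-0.82), NSDHL (-0.80) and UQCRC2 (-0.75).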

How the results depend on the processing

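Of 188 genes named for D2 against D0, 177 neither lost a call nor changed sign under the alternatives run, and 12 of 12 did not for D2 against D1. PCNA, RPLP0 and TFRC, which had not passed, did so in at least 1. Among those that lost a call in at least 1 were ABCB6, KRT18, KRT8, MALAT1, MYC, SNHG5 and TAF1D, and FTL (0.009), FTH1 (0.192) and OAZ1 (0.043) changed sign under equal totals, by the construction of that scaling. Under equal totals 7821 genes were higher and 3093 lower against D0. For the difference between fractions, 13 of 52 named genes kept their call everywhere. Its counts of higher and lower genes were 95 and 29 under equal totals, 84 and 382 with only the compared groups in the fit, and between 1 and 290 and between 106 and 937 when 1 library was left out, the highest without cytoplasmic D2 C. With the replicate block they were 48 and 585 (letters within each fraction) and 2 and 164 (difference within letter and day). The cause was not tested. The replicate block changed the call of PCNA (0.20, adjusted p = 0.0301) and of no other gene named against D0. Count models listed as alternatives were not run, since a check of the recovered whole reads did not pass in every library. Depth limits genes near the lowest value of 1.004.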
